A study of Mus musculus with 6 samples.

Results

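The interferon-stimulated effector genes are genes that cells switch on after interferon signalling and whose products act on viruses and other intracellular microbes or on the response itself. The 49 genes described here were named as a list by symbol and were taken from a table of 47643 genes. All 49 were found, and all 49 passed the filter on low counts, with at least 11 counts in every library. Polyadenylated RNA of intestine was sequenced from 6 labelled samples of male C57BL/6 mice, 1 library each. The mice called Myc-deleted here carry the genotype MycΔIE, ERT2, an inducible deletion of Myc, the gene of a transcription factor that drives growth and proliferation (3 libraries). The control mice are Mycfl/fl, with both Myc alleles floxed (3 libraries). Mice of both genotypes were 7 to 8 weeks old, received intraperitoneal tamoxifen and then ate a high-fat diet of 60% for 2 weeks, so every value below was measured under tamoxifen and this diet. The labels name neither the promoter that drives the recombinase nor whether the control mice carry one, so a recombinase acting on other DNA and the loss of Myc cannot be told apart.

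Interferons bind receptors at the cell surface, and Janus kinases then phosphorylate STAT proteins. Type I and type III interferons act mainly through a complex of STAT proteins and IRF9, which binds interferon-stimulated response elements, whereas interferon gamma acts through STAT dimers that bind another element and strongly induces guanylate-binding proteins and immunity-related GTPases. In the intestine, epithelial cells respond to type III interferon through the receptor chain Ifnlr1, and intraepithelial lymphocytes are a known source of interferon gamma.

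Expected counts summed to between 10636658 and 11157715 per Myc-deleted library and to between 9956938 and 11328693 per control library. Levels are given as CPM, counts scaled to a common library total after normalization by the trimmed mean of M-values (TMM), and 3 counts corresponded to 0.265 to 0.301 CPM. CPM are not corrected for gene length, so levels are compared between libraries and not between genes. In every list of values the libraries follow in the order 1, 2, 3. Myc itself stood at 3.29, 4.36 and 5.81 CPM in the Myc-deleted libraries, against 5.86, 6.05 and 6.03 CPM in the control libraries. Every Myc-deleted library was below every control library, as in 13.7% of all tested genes. Library 3 was nearly level with the controls, at 63 counts of Myc before scaling, against 59, 70 and 59 counts in the control libraries. Myc did not pass the test across all genes (log2 fold change -0.41 ± 0.22, adjusted p = 0.318, where ± is the SE here and in every fold change below). The labels do not say which exons were deleted, and the counts cover the whole gene. The extraction protocol names liver while the other labels name intestine. Fabp6, an ileal bile acid carrier, averaged 10559 ± 951 CPM in Myc-deleted and 11004 ± 1462 CPM in control libraries (SD, n = 3 each), and Alb, the hepatocyte gene of albumin, reached at most 3.20 CPM in any library.

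Of the 49 effector genes, 32 rose and 0 fell in Myc-deleted intestine (edgeR quasi-likelihood test, adjusted p under 0.05 over all 12720 tested genes). Across all tested genes, 4.22% rose and 3.73% fell. The members were chosen with earlier results of these data known, so these shares describe the list and are no independent test of it. All 49 fold changes were positive, as were 49.8% of those of all tested genes. An unadjusted p under 0.05 with a positive fold change was found for 42 of the 49 and for 11.7% of all tested genes. Of the 32 genes that passed, 23 differed by at least 2-fold, a count without a computed share of all genes. The median log2 fold change of the 49 was 1.43, between 0.17 for Ifi47 and 3.29 for Ifi44, and the median of all tested genes was 0.00 (-0.00212). DESeq2 called 33 of the 49 higher (4.74% of all genes) and limma voom 26 (4.1%), and both called 0 lower. Under RLE scaling, TMM without ribosomal protein genes and members, and the stricter filter 32 were called (4.21%, 4.21% and 4.31% of all genes), under upper-quartile scaling 31 (3.53%), without a filter 40 (3.06%), with the replicate block 37 (4.34%), at an adjusted p of 0.1 35 (6.48%) and against a 1.2-fold change 23 (1.81%). The labels do not say outright that each library is a separate mouse or litter. The p-values rest on treating the 6 libraries as independent samples, which the labels do not establish.

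The libraries of a group were not alike. Members were set against their control mean, and the median log2 ratio was 0.78, 0.71 and 2.11 in Myc-deleted libraries 1, 2 and 3, and 0.22, -0.36 and 0.06 in control libraries 1, 2 and 3. Myc-deleted library 3 was the highest of the 6 libraries for 48 of the 49 genes, against 18.8% of all tested genes, and control library 2 was the lowest for 42, against 17.6%. For 24 genes, library 3 was at least 2-fold above the next highest library, a count for which the share of all tested genes was not computed. In Myc-deleted libraries 1 and 2, 46 and 43 of the 49 genes were above their control mean. The same held for 43, 5 and 26 genes in control libraries 1, 2 and 3. Over all tested genes the median log2 ratio, taken with 0.5 CPM added, was between -0.00868 and -9.46e-05 in the 6 libraries. The groups did not overlap for 38 of the 49 genes, against 14.0% of all tested genes in which every Myc-deleted library was above every control library.

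**Figure D1:**
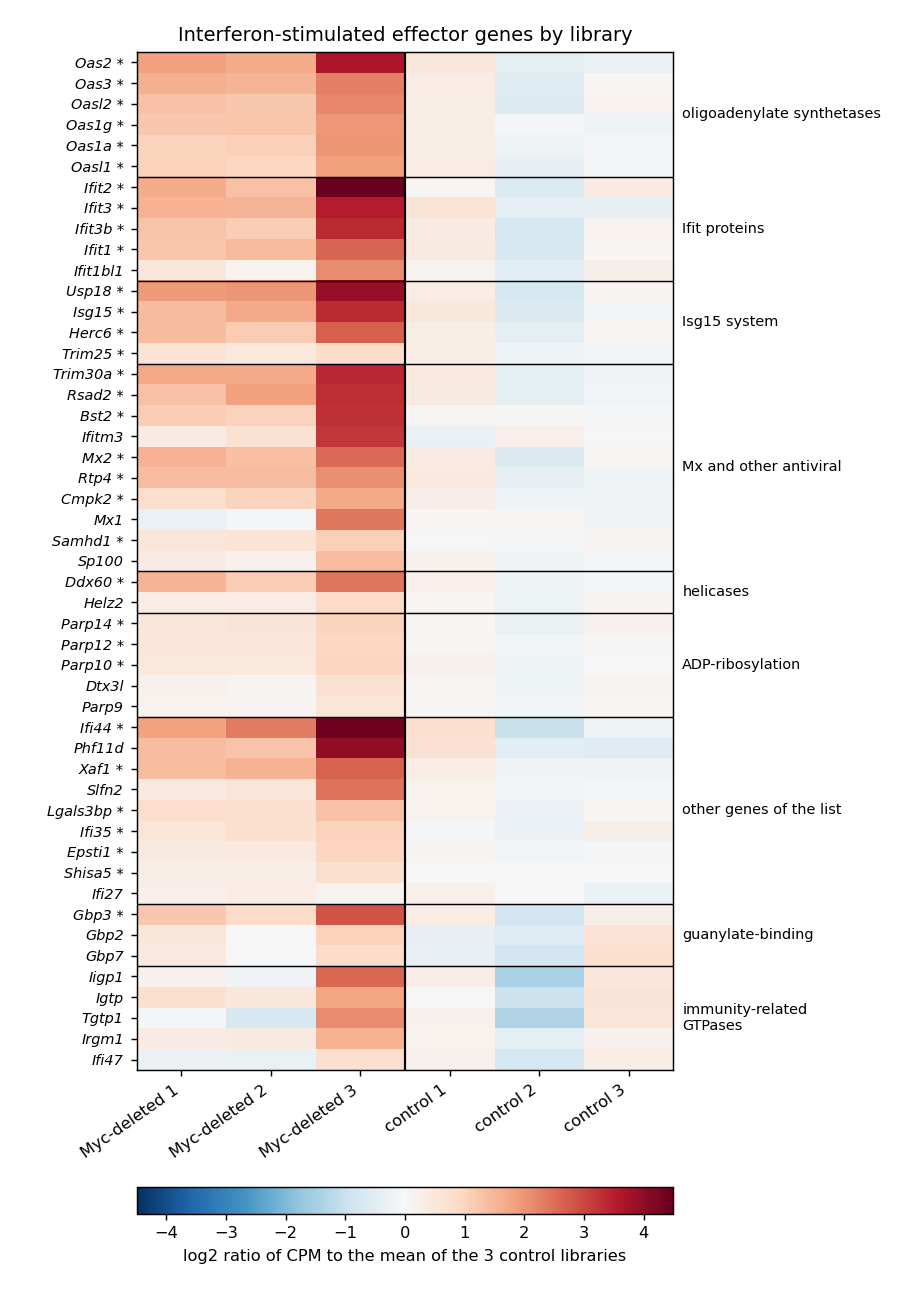
Heat map of the log2 ratio of each effector gene (rows, grouped by role) to its control mean in each of the 6 libraries (columns, Myc-deleted left, control right), with an asterisk for genes past the test. Myc-deleted library 3 was the highest library for 48 of 49 genes and control library 2 the lowest for 42.

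How many genes passed depended on which library was left out. Without Myc-deleted library 3, 28 of the 32 called genes still passed and the median log2 fold change of the 49 was 0.75, while 3.08% of all genes tested then rose. Without Myc-deleted library 1 or 2, 35 and 33 passed, beside 3.87% and 2.59% of all genes tested. Without control library 1, 2 or 3, 25, 9 and 19 of the 49 passed, and 2.63%, 1.77% and 2.88% of all genes tested then rose. The median log2 fold change of the 49 was 1.53, 1.24 and 1.41 in those 3 fits. The genes that lost their call without a control library did so at log2 fold changes that differed from those with all libraries by between -0.36 and 0.24. The 9 that passed in all 6 fits that each left out a library were Oas1a, Oas1g, Oas3, Oasl2, Rtp4, Xaf1, Parp12, Lgals3bp and Ddx60. In bulk RNA, fewer cells of a type and less RNA per cell cannot be told apart, and this touches every level given here.

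**Figure D2:**
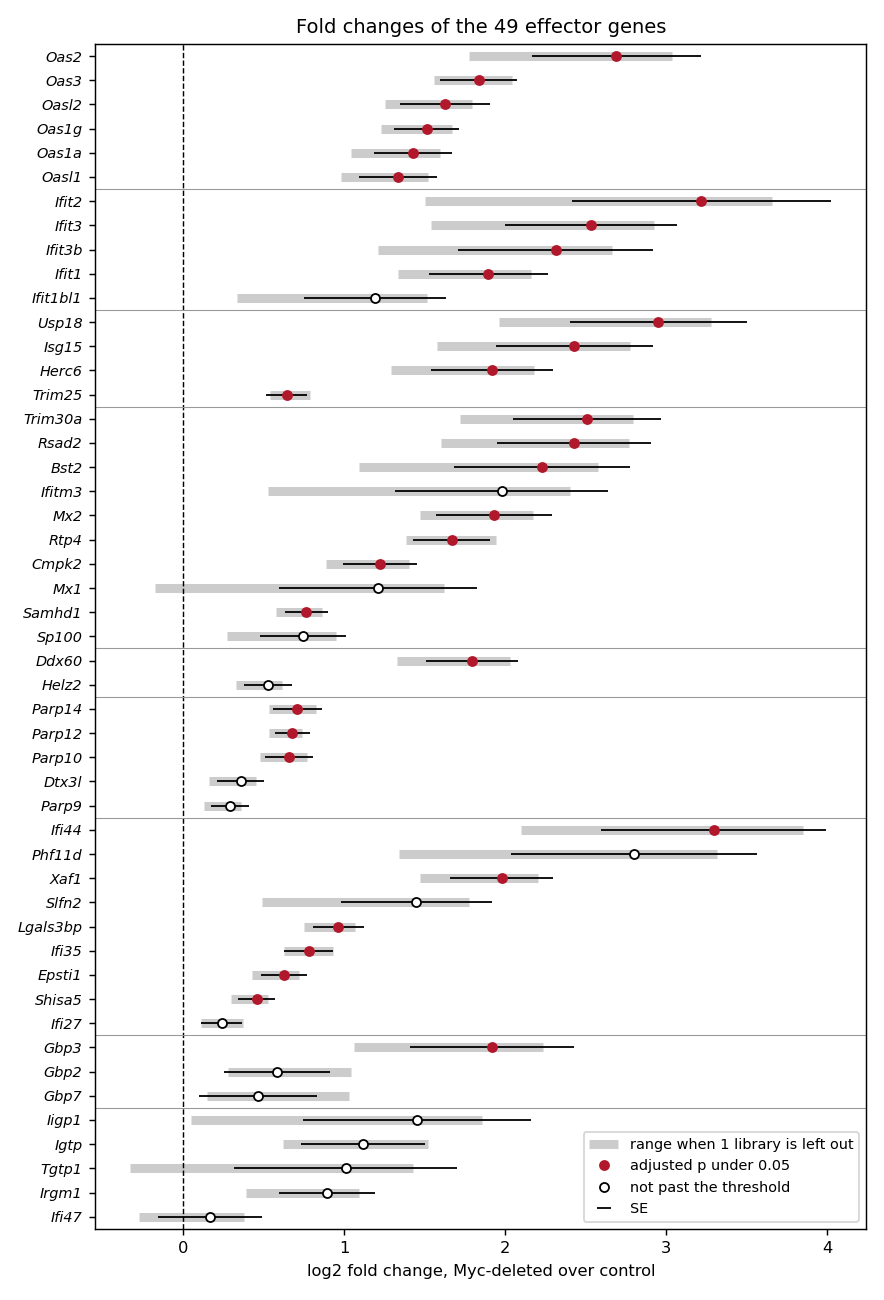
Log2 fold change of Myc-deleted over control for each of the 49 effector genes (points, bars are 1 SE) with the range over the 6 fits that each leave out 1 library in grey. All points lie above 0, and the grey range of Mx1, Tgtp1 and Ifi47 crosses 0.

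Start-site windows of 300 bases (250 before to 50 after the start, RefSeq, GRCm38.p6) were available for 39 of the 49 genes. They were searched on both strands for GAAA, any 2 bases and GAAA again, the core of the interferon-stimulated response element. The motif was found for 20 of the 39 genes (51.3%), against 1079 of 27025 genes with a window (3.99%) and 1131 of 32851 windows (3.44%). The list was made of interferon-stimulated genes, so this share describes the list and not a response in these libraries. Genes with the motif had a median log2 fold change of 1.81 (range 0.46 to 2.53), with 13 of 20 called higher. Those with a window but without the motif had a median of 0.96 (0.17 to 3.29), with 13 of 19 called. The 10 without a window had a median of 1.33 (0.24 to 2.95), with 6 called. Whether these sets differ was not tested. TTCNNNGAA, the element of STAT dimers, was found for 10 of 39 (25.6%, against 9.55% of genes), and CACGTG, the E-box to which Myc binds with its partner Max, for 1 of 39, Trim25 (2.56%, against 8.09%). A match is a stretch of letters in this window and not a measured binding site. One window is shown for each role group that has one with the motif. It comes from the member with the lowest p among those with the motif, on the strand of its gene. Capitals mark the motif on either strand, reading GAAA, 2 bases, GAAA or, on the other strand, TTTC, 2 bases, TTTC.
Oas3: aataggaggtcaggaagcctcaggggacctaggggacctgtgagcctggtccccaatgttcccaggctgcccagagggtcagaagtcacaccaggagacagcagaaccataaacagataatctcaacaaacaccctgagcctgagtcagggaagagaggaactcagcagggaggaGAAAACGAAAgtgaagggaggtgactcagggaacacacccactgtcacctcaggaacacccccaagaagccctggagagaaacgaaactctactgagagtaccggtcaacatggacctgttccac
Ifit1: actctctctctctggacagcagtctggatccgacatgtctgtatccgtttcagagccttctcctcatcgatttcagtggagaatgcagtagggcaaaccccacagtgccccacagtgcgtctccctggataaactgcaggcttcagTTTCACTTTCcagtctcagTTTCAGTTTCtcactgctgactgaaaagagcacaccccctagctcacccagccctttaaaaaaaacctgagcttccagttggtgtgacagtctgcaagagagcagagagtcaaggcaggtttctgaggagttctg
Isg15: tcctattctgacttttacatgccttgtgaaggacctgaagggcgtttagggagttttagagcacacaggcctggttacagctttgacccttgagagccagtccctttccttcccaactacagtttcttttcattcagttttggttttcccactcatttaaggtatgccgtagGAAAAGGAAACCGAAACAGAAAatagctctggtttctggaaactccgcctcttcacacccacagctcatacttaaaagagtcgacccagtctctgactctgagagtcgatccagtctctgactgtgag
Trim30a: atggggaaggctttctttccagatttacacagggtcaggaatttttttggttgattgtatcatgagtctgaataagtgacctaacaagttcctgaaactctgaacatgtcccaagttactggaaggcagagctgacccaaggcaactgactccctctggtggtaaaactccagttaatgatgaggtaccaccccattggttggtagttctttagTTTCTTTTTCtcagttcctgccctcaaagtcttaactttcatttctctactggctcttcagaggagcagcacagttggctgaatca
Ddx60: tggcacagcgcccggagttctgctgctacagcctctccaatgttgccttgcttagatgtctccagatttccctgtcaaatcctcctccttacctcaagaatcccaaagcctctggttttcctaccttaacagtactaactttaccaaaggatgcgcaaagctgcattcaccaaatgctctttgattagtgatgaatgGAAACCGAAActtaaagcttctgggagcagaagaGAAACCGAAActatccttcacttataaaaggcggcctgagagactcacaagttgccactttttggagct
Shisa5: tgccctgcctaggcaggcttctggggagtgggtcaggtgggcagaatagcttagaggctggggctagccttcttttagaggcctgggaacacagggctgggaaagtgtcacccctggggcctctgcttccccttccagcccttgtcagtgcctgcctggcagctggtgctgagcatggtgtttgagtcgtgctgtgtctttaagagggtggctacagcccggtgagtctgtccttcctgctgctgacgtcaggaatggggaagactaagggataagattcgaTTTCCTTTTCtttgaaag
Gbp3: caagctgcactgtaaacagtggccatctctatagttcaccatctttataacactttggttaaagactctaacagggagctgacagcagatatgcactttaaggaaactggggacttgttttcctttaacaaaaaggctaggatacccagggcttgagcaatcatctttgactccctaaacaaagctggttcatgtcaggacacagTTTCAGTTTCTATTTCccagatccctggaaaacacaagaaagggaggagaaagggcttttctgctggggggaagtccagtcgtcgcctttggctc
Irgm1: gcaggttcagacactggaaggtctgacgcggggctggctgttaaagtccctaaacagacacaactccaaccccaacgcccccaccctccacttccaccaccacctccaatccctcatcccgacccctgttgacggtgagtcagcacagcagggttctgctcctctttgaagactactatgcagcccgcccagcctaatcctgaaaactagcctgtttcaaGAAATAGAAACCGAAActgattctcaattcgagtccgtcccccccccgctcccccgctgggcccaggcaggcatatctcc
The windows are chr5:120777610-120777909 (minus strand) for Oas3, chr19:34640639-34640938 (plus) for Ifit1, chr4:156200769-156201068 (minus) for Isg15, chr7:104465144-104465443 (minus) for Trim30a, chr8:61927837-61928136 (plus) for Ddx60, chr9:109054616-109054915 (plus) for Shisa5, chr3:142559794-142560093 (plus) for Gbp3 and chr11:48871371-48871670 (minus) for Irgm1. Overlapping matches run together in capitals in Isg15, with first bases at -78, -72 and -66 from the start site, in Gbp3 at -45 and -39 and in Irgm1 at -30 and -24. Oas3 has a single match at -75, Trim30a one at -36, Ddx60 matches at -53 and -19, and Ifit1 at -104 and -85. In Shisa5 the match begins 33 bases after the start, and it is in 1 of 5 windows of that gene. The 8 genes shown include Irgm1, which did not pass the test.

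All 6 oligoadenylate synthetases and synthetase-like genes rose, with a median log2 fold change of 1.57 and no overlap between groups in any of them. These proteins bind double-stranded RNA, and the active synthetases make short oligoadenylates that set off the cutting of RNA in infected cells. Oas3, the largest of them, stood at 179.9, 173 and 287 CPM in the Myc-deleted libraries, against 75.8, 40.9 and 63.1 CPM in the control libraries (log2 fold change 1.83 ± 0.24, adjusted p = 0.00208, the lowest adjusted p among the 49). Its lowest Myc-deleted library was more than 2-fold above its highest control library. Oas1a stood at 164, 171 and 317 CPM in the Myc-deleted libraries, against 97.5, 68.6 and 76.5 CPM in the control libraries (log2 fold change 1.43 ± 0.24, adjusted p = 0.00680). Oas1g stood at 90.9, 94.4 and 152 CPM in the Myc-deleted libraries, against 47.5, 37.1 and 33.7 CPM in the control libraries (log2 fold change 1.51 ± 0.20, adjusted p = 0.00222). These are near-identical copies: 57.6% of 50-base stretches of Oas1a transcripts and 45.7% of those of Oas1g also occur in other genes of the annotation, nearly all of them in each other, so their split is uncertain. Oas2 stood at 23.5, 20.6 and 80.5 CPM in the Myc-deleted libraries, against 9.24, 4.84 and 5.31 CPM in the control libraries (log2 fold change 2.69 ± 0.53, adjusted p = 0.0132), and library 3 was 3.43-fold above the next highest. Oasl1, a synthetase-like protein without enzyme activity, stood at 209, 196 and 369 CPM in the Myc-deleted libraries, against 128, 80.2 and 99.4 CPM in the control libraries (log2 fold change 1.33 ± 0.24, adjusted p = 0.00923). Oasl2 stood at 334, 312 and 604 CPM in the Myc-deleted libraries, against 165, 88.5 and 152 CPM in the control libraries (log2 fold change 1.63 ± 0.28, adjusted p = 0.00715). In each of the 6 genes, both other Myc-deleted libraries also stood above all 3 control libraries. Oas2 missed the threshold without control library 2 or 3 (adjusted p = 0.0764 and 0.0563), and Oasl1 without control library 2 (adjusted p = 0.0505). The log2 fold change was then 2.5 and 2.58 for Oas2 and 1.17 for Oasl1. Oas2, Oas3, Oas1g and Oas1a lie together at chr5:120730333-120907521, and Oasl2 and Oasl1 at chr5:114896936-114937915 (GRCm38).

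Ifit proteins recognise foreign RNA and hold back its translation, Ifit1 through RNA caps that lack a methyl group. Of 5 Ifit genes, 4 rose, and the group had the highest median log2 fold change of the 9 role groups, 2.31. Ifit1 stood at 106, 119 and 272 CPM in the Myc-deleted libraries, against 59.7, 27.0 and 47.3 CPM in the control libraries (log2 fold change 1.90 ± 0.37, adjusted p = 0.0133). Ifit2 stood at 18.4, 14.6 and 129 CPM in the Myc-deleted libraries, against 6.16, 3.80 and 7.56 CPM in the control libraries (log2 fold change 3.22 ± 0.81, adjusted p = 0.0389). Ifit3 stood at 47.9, 46.3 and 186 CPM in the Myc-deleted libraries, against 24.0, 11.9 and 12.7 CPM in the control libraries (log2 fold change 2.53 ± 0.54, adjusted p = 0.0187). All 3 genes had their Myc-deleted libraries above every control library, and library 3 was 2.29-, 7.00- and 3.89-fold above the next highest in Ifit1, Ifit2 and Ifit3. Ifit3b stood at 8.42, 7.43 and 35.1 CPM in the Myc-deleted libraries, against 4.47, 1.99 and 3.88 CPM in the control libraries (log2 fold change 2.31 ± 0.61, adjusted p = 0.0464). It shares 44.9% of its 50-base stretches with other genes and Ifit3 51.2%, mainly with each other, so reads could be split between them. Ifit1bl1 stood at 135, 106 and 413 CPM in the Myc-deleted libraries, against 106, 67.0 and 113 CPM in the control libraries, overlapped between groups and did not pass (log2 fold change 1.19 ± 0.44, adjusted p = 0.142). Without Myc-deleted library 3, the log2 fold change was 1.33 in Ifit1, 1.5 in Ifit2, 1.54 in Ifit3, 1.21 in Ifit3b and 0.33 in Ifit1bl1, and only Ifit3b of the called genes then missed the threshold (adjusted p = 0.0522). All 4 missed it without control library 2 (adjusted p = 0.0598 to 0.184), Ifit2, Ifit3 and Ifit3b without control library 3 (0.0749 to 0.110), and Ifit2 and Ifit3b without control library 1 (0.0955 and 0.110). The log2 fold change without control library 2 was 1.62 for Ifit1, 2.96 for Ifit2, 2.34 for Ifit3 and 2.01 for Ifit3b. The 5 genes lie in a row at chr19:34550694-34650009.

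The Isg15 system couples the ubiquitin-like protein Isg15 to other proteins, and all 4 genes placed in this role group rose, with a median log2 fold change of 2.17. Isg15 stood at 64.8, 80.4 and 247 CPM in the Myc-deleted libraries, against 34.9, 15.6 and 22.7 CPM in the control libraries (log2 fold change 2.43 ± 0.49, adjusted p = 0.0147). Usp18, the protease that removes Isg15 and that also dampens signalling at the type I interferon receptor, stood at 39.3, 40.8 and 158 CPM in the Myc-deleted libraries, against 13.2, 6.22 and 11.6 CPM in the control libraries (log2 fold change 2.95 ± 0.55, adjusted p = 0.0103). Herc6, the ligase that attaches Isg15 in mouse, stood at 33.5, 27.7 and 80.5 CPM in the Myc-deleted libraries, against 15, 9.16 and 13.5 CPM in the control libraries (log2 fold change 1.92 ± 0.38, adjusted p = 0.0134). In these genes library 3 was 3.08-fold (Isg15), 3.88-fold (Usp18) and 2.41-fold (Herc6) above the next highest, and the groups did not overlap. Trim25, a ubiquitin ligase of the RNA-sensing pathway, stood at 325, 294 and 375 CPM in the Myc-deleted libraries, against 254, 187 and 196 CPM in the control libraries (log2 fold change 0.64 ± 0.13, adjusted p = 0.0147), a smaller difference spread more evenly over the Myc-deleted libraries. Without Myc-deleted library 3 all 4 genes passed, with log2 fold changes of 1.57 for Isg15, 1.96 for Usp18, 1.29 for Herc6 and 0.54 for Trim25. All 4 missed the threshold without control library 2 (adjusted p = 0.0616 to 0.0796), and Isg15 and Trim25 without control library 3 (0.0605 and 0.0616).

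**Figure D3:**
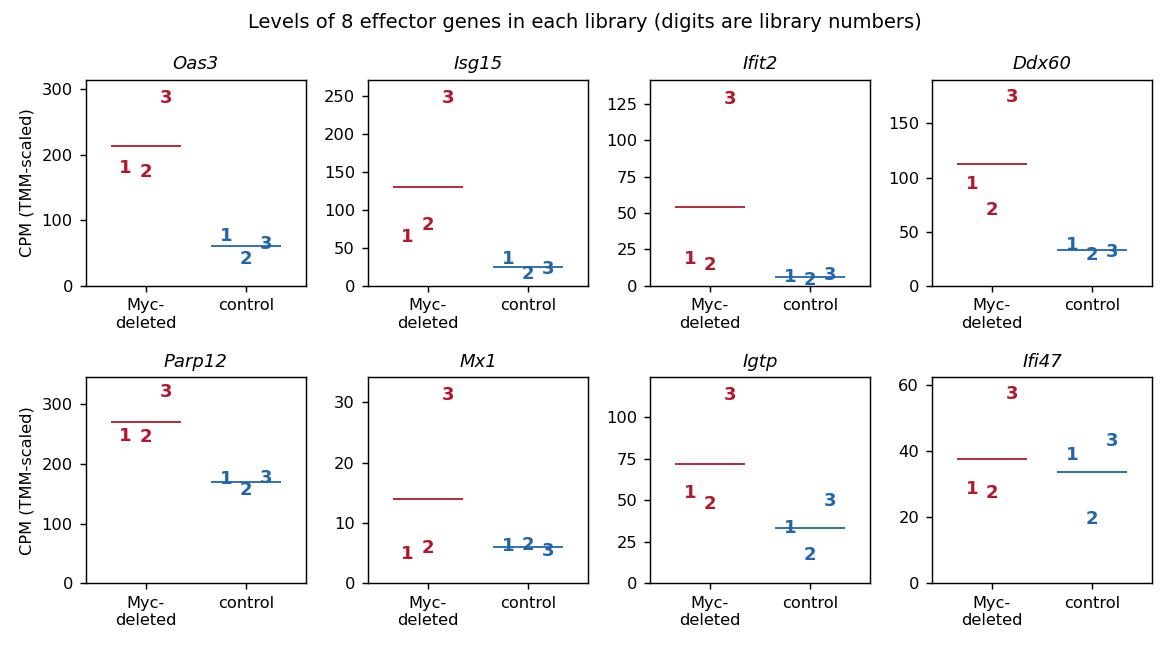
Level of Oas3, Isg15, Ifit2, Ddx60, Parp12, Mx1, Igtp and Ifi47 (TMM-scaled CPM, axes start at 0) in each Myc-deleted (left) and control (right) library, with digits for library numbers and lines for group means. In Oas3, Isg15, Ifit2, Ddx60 and Parp12 every Myc-deleted library lies above every control library, and in Mx1, Igtp and Ifi47 the groups overlap.

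Among the Mx proteins and other antiviral effectors, 7 of 10 genes rose, with a median log2 fold change of 1.80. Rtp4, a chaperone of membrane receptors, stood at 48.3, 47.9 and 78.9 CPM in the Myc-deleted libraries, against 24.8, 14.3 and 16.0 CPM in the control libraries (log2 fold change 1.67 ± 0.24, adjusted p = 0.00299), and it passed in all 6 fits that left out a library. Rsad2, or viperin, makes a nucleotide analogue that stops viral RNA synthesis, and it stood at 23.7, 34.0 and 94.8 CPM in the Myc-deleted libraries, against 12.6, 7.09 and 8.79 CPM in the control libraries (log2 fold change 2.43 ± 0.48, adjusted p = 0.0135). Cmpk2, the kinase that supplies nucleotides for viperin, stood at 73.8, 85.5 and 142 CPM in the Myc-deleted libraries, against 53.0, 37.3 and 38.8 CPM in the control libraries (log2 fold change 1.22 ± 0.23, adjusted p = 0.0105). Rsad2 and Cmpk2 lie next to each other on opposite strands at chr12:26442746-26479837, and the groups did not overlap in either. Trim30a, a mouse protein that dampens Toll-like receptor signalling, stood at 27.0, 26.3 and 84.6 CPM in the Myc-deleted libraries, against 11, 5.96 and 7.36 CPM in the control libraries (log2 fold change 2.51 ± 0.46, adjusted p = 0.00978). Bst2, or tetherin, which holds budding virus at the cell surface, stood at 29.6, 27.7 and 131 CPM in the Myc-deleted libraries, against 13.7, 13.7 and 12.7 CPM in the control libraries (log2 fold change 2.23 ± 0.55, adjusted p = 0.0350). In Bst2, library 3 was 4.42-fold above the next highest library, and the control libraries differed little. Samhd1, which breaks down deoxynucleotides, stood at 100.01, 104 and 144 CPM in the Myc-deleted libraries, against 66.9, 63.5 and 74.1 CPM in the control libraries (log2 fold change 0.76 ± 0.14, adjusted p = 0.00849). Mx2, a cytoplasmic GTPase annotated as a polymorphic pseudogene, stood at 8.42, 7.15 and 16.4 CPM in the Myc-deleted libraries, against 3.68, 1.82 and 2.96 CPM in the control libraries (log2 fold change 1.93 ± 0.36, adjusted p = 0.0103). Both genes had every Myc-deleted library above every control library.

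The other Mx gene, Mx1, is known to be defective in common laboratory strains such as C57BL/6. It stood at 4.85, 5.85 and 31.2 CPM in the Myc-deleted libraries, against 6.26, 6.40 and 5.41 CPM in the control libraries (log2 fold change 1.21 ± 0.61, adjusted p = 0.288). Only library 3 was above the control libraries, and without it the log2 fold change was -0.18. Ifitm3, which blocks the fusion of viruses with endosomes, stood at 10.2, 12.9 and 71.4 CPM in the Myc-deleted libraries, against 6.46, 9.42 and 7.97 CPM in the control libraries (log2 fold change 1.98 ± 0.66, adjusted p = 0.107). Its groups did not overlap, but library 3 was 5.53-fold above the next highest library. Sp100, a component of nuclear bodies, stood at 48.2, 42.7 and 97.6 CPM in the Myc-deleted libraries, against 42.8, 33.3 and 36.7 CPM in the control libraries and overlapped between groups (log2 fold change 0.74 ± 0.27, adjusted p = 0.135). Without control library 2, 6 of the 7 called genes, all but Rtp4, missed the threshold (adjusted p = 0.0519 to 0.130). Bst2 also missed it without control library 1 or 3 (0.101 and 0.105), and Rsad2 without control library 3 (0.0553).

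Of the 5 genes of ADP-ribosylation, 3 rose, by less than the groups above (median log2 fold change 0.66). Parp12, which attaches single ADP-ribose units, stood at 246, 244 and 319.7 CPM in the Myc-deleted libraries, against 175, 156 and 176 CPM in the control libraries (log2 fold change 0.68 ± 0.11, adjusted p = 0.00609), and it passed whichever library was left out. Parp14, an enzyme of the same kind, stood at 207, 216 and 293 CPM in the Myc-deleted libraries, against 149.8, 119.9 and 169 CPM in the control libraries (log2 fold change 0.71 ± 0.15, adjusted p = 0.0205). Parp10, a further such enzyme, stood at 58.5, 59.3 and 81.7 CPM in the Myc-deleted libraries, against 48.5, 36.5 and 41.7 CPM in the control libraries (log2 fold change 0.66 ± 0.15, adjusted p = 0.0243). In all 3 the Myc-deleted libraries were above the control libraries, and libraries 1 and 2 were near each other. Parp9 and Dtx3l form a complex with ubiquitin ligase activity. Parp9 stood at 126, 124 and 167 CPM in the Myc-deleted libraries, against 118, 104 and 120.0 CPM in the control libraries, with no overlap (log2 fold change 0.29 ± 0.12, adjusted p = 0.191). Dtx3l stood at 125, 118 and 175 CPM in the Myc-deleted libraries, against 112, 94.6 and 119.6 CPM in the control libraries, with overlap (log2 fold change 0.36 ± 0.15, adjusted p = 0.188). The annotated genes of this pair overlap by 681 bases on opposite strands, and although the kit keeps strand, the strand setting of the counting is not given in the sources used here, so their reads may not be fully separated. Parp10 missed the threshold without Myc-deleted library 3 (0.0506), control library 2 (0.114) or control library 3 (0.0760), all adjusted p-values. Parp14 missed it without control library 1 (adjusted p = 0.0616) or 2 (0.0912).

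Of the helicases, Ddx60, a cofactor of RNA sensing, stood at 94.0, 70.3 and 174 CPM in the Myc-deleted libraries, against 37.9, 28.7 and 31.3 CPM in the control libraries (log2 fold change 1.79 ± 0.29, adjusted p = 0.00503). It rose, with library 2 the lowest Myc-deleted library and still above all control libraries. Helz2, a helicase that acts as a transcriptional coactivator, stood at 164, 161 and 234 CPM in the Myc-deleted libraries, against 138, 109 and 141 CPM in the control libraries, with no overlap, but did not pass (log2 fold change 0.53 ± 0.15, adjusted p = 0.0638).

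Of the other 9 genes of the list, 6 rose, with a median log2 fold change of 0.96. Ifi44 had the largest fold change of the 49 and stood at 12.0, 17.4 and 71.0 CPM in the Myc-deleted libraries, against 5.66, 1.73 and 2.96 CPM in the control libraries (log2 fold change 3.29 ± 0.70, adjusted p = 0.0189). Library 3 was 4.09-fold above the next highest, and without it the log2 fold change was 2.10. Xaf1, which opposes an inhibitor of apoptosis, stood at 31.3, 35.8 and 75.4 CPM in the Myc-deleted libraries, against 15.2, 10.5 and 10.5 CPM in the control libraries (log2 fold change 1.98 ± 0.32, adjusted p = 0.00543). Lgals3bp, a secreted glycoprotein that binds galectins, stood at 587, 551 and 835 CPM in the Myc-deleted libraries, against 373, 283 and 357 CPM in the control libraries (log2 fold change 0.96 ± 0.16, adjusted p = 0.00652). Xaf1 and Lgals3bp passed whichever library was left out. Ifi35, a partner of the protein Nmi, stood at 128, 144 and 181 CPM in the Myc-deleted libraries, against 85.0, 73.4 and 106 CPM in the control libraries (log2 fold change 0.78 ± 0.15, adjusted p = 0.0130). Epsti1 stood at 60.8, 61.7 and 87.9 CPM in the Myc-deleted libraries, against 50.1, 42.0 and 44.3 CPM in the control libraries (log2 fold change 0.63 ± 0.14, adjusted p = 0.0267). Shisa5, a membrane protein of the endoplasmic reticulum linked to cell death, stood at 169.9, 167 and 225 CPM in the Myc-deleted libraries, against 137, 137 and 136 CPM in the control libraries (log2 fold change 0.46 ± 0.11, adjusted p = 0.0362). Shisa5 had the smallest fold change of the 32 called genes, but its control libraries were almost level. Without control library 2, Ifi44, Ifi35, Epsti1 and Shisa5 missed the threshold (adjusted p = 0.0670 to 0.133), as did Ifi44, Epsti1 and Shisa5 without control library 3 (0.0729 to 0.10), Ifi35 and Shisa5 without control library 1 (0.0525 and 0.10) and Shisa5 without Myc-deleted library 3 (0.0537).

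The remaining 3 of these genes did not pass. Slfn2, a schlafen protein that protects transfer RNA in lymphocytes, stood at 19.5, 20.8 and 77.0 CPM in the Myc-deleted libraries, against 15.9, 13.3 and 13.8 CPM in the control libraries (log2 fold change 1.45 ± 0.47, adjusted p = 0.0977). Phf11d, a protein with a PHD finger, stood at 5.12, 4.83 and 31.0 CPM in the Myc-deleted libraries, against 3.18, 1.38 and 1.33 CPM in the control libraries (log2 fold change 2.80 ± 0.76, adjusted p = 0.0537). In both the groups did not overlap, and library 3 was 3.70-fold (Slfn2) and 6.05-fold (Phf11d) above the next highest. Both passed without Myc-deleted library 1 (adjusted p = 0.0387 for Slfn2 and 0.0273 for Phf11d), as did Ifitm3 (0.0349), and Phf11d also passed without library 2 (0.0294). Ifi27 stood at 35.1, 37.9 and 33.9 CPM in the Myc-deleted libraries, against 35.6, 30.5 and 24.4 CPM in the control libraries (log2 fold change 0.24 ± 0.13, adjusted p = 0.316). It was the one gene of the 49 whose highest library was Myc-deleted library 2 and not 3.

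**Figure D4:**
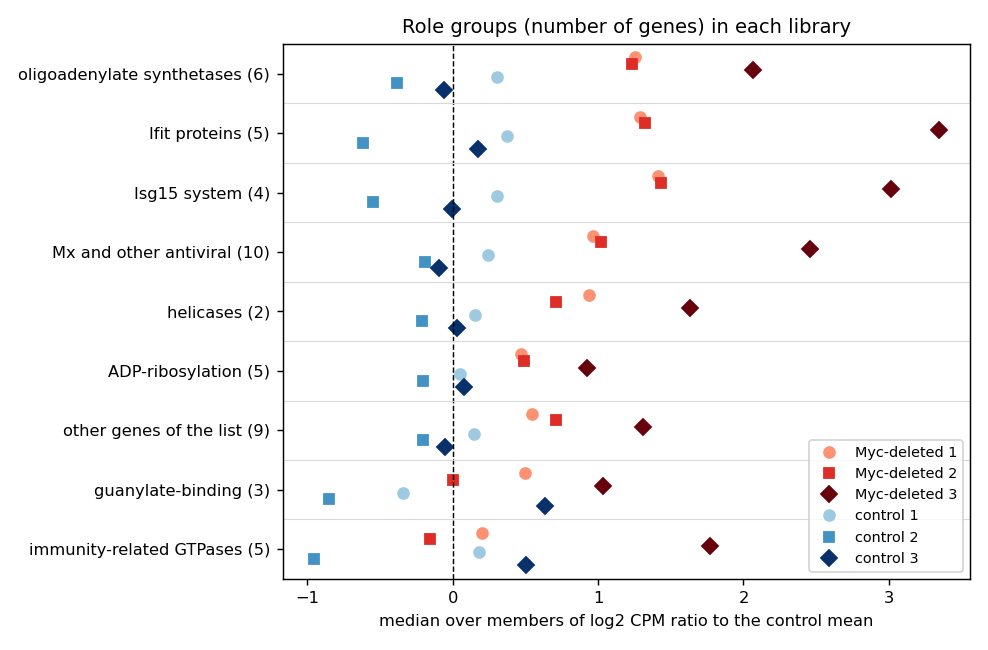
Median log2 ratio to the control mean (horizontal axis) of each of the 9 role groups (vertical axis), with libraries marked by colour and symbol. In the oligoadenylate synthetases the Myc-deleted medians were 1.26, 1.23 and 2.07, and in the immunity-related GTPases 0.20, -0.15 and 1.77.

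The guanylate-binding proteins and immunity-related GTPases are large GTPases that attack the vacuoles of intracellular parasites and bacteria. Of 3 guanylate-binding proteins, Gbp3 rose, and 0 of 5 immunity-related GTPases passed in the edgeR fit used throughout, in DESeq2 or in limma voom. At an unadjusted p under 0.05, 2 of the 5 passed in that edgeR fit, Irgm1 and Igtp, and without the filter on low counts edgeR called both (adjusted p = 0.00855 for Irgm1 and 0.00863 for Igtp), as it did with the replicate block. Gbp3 stood at 11, 8.64 and 33.4 CPM in the Myc-deleted libraries, against 5.96, 2.59 and 5.62 CPM in the control libraries (log2 fold change 1.92 ± 0.51, adjusted p = 0.0491), the highest adjusted p of the 32 called genes. It missed the threshold whenever Myc-deleted library 3 or any control library was left out (adjusted p = 0.0844 to 0.188). Gbp2 stood at 14.8, 10.5 and 21.5 CPM in the Myc-deleted libraries, against 8.15, 7.00 and 16.3 CPM in the control libraries (log2 fold change 0.58 ± 0.33, adjusted p = 0.339). Gbp7 stood at 7.14, 5.2 and 9.32 CPM in the Myc-deleted libraries, against 4.17, 2.94 and 8.79 CPM in the control libraries (log2 fold change 0.46 ± 0.37, adjusted p = 0.514). Gbp2 and Gbp7 overlapped between groups, with control library 3 above Myc-deleted libraries 1 and 2 in each.

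Among the immunity-related GTPases, Irgm1 and Igtp regulate the family and Iigp1 and Tgtp1 act on the vacuole. Irgm1 stood at 59.7, 60.4 and 134 CPM in the Myc-deleted libraries, against 51.3, 34.1 and 52.1 CPM in the control libraries (log2 fold change 0.89 ± 0.30, adjusted p = 0.108), without overlap. Igtp stood at 54.3, 47.9 and 113 CPM in the Myc-deleted libraries, against 33.1, 17.2 and 49.6 CPM in the control libraries (log2 fold change 1.12 ± 0.38, adjusted p = 0.116). Iigp1 stood at 4.39, 3.44 and 23.1 CPM in the Myc-deleted libraries, against 4.67, 1.38 and 5.41 CPM in the control libraries (log2 fold change 1.45 ± 0.71, adjusted p = 0.271). Igtp and Iigp1 overlapped between groups, and Myc-deleted library 3 was 2.09-fold (Igtp) and 4.26-fold (Iigp1) above the next highest library. Tgtp1 stood at 2.56, 1.58 and 11.5 CPM in the Myc-deleted libraries, against 2.98, 1.04 and 3.88 CPM in the control libraries (log2 fold change 1.01 ± 0.69, adjusted p = 0.441). It shares 81.2% of its 50-base stretches with other genes, chiefly Tgtp2, so its level is uncertain. Ifi47 stood at 28.5, 27.4 and 57.4 CPM in the Myc-deleted libraries, against 38.9, 19.5 and 43.1 CPM in the control libraries (log2 fold change 0.17 ± 0.33, adjusted p = 0.818). In Ifi47, control libraries 1 and 3 were above Myc-deleted libraries 1 and 2. Without Myc-deleted library 3 the log2 fold change was 0.39 for Irgm1, 0.62 for Igtp, 0.05 for Iigp1, -0.33 for Tgtp1 and -0.27 for Ifi47. The group's median log2 ratio was 0.20, -0.15 and 1.77 in the Myc-deleted libraries, against 0.18, -0.95 and 0.50 in the control libraries, whereas that of the oligoadenylate synthetases was 1.26, 1.23 and 2.07, against 0.30, -0.38 and -0.06. Whether the 2 groups of genes differ in their response was not tested.

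Interferon genes themselves were barely counted. Of 21 ligand genes, 19 were at 0 in all 6 libraries and none reached the filter. Ifng had 2, 2 and 0 counts in the Myc-deleted libraries, against 1, 0 and 3 counts in the control libraries, and Ifna12 had 1 count in Myc-deleted library 1. The 21 genes summed to 0 to 0.274 CPM in Myc-deleted and 0 to 0.306 CPM in control libraries, at a depth where a count of 0 allows up to 3 counts per library.

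Of 22 genes of interferon receptors and signalling, 5 rose and 0 fell, with a median log2 fold change of 0.06. At an unadjusted p under 0.05 in either direction the same number, 5, passed, and DESeq2 and limma voom each called 5 higher and 0 lower. Stat2, a subunit of the complex that binds the response element, stood at 114, 123 and 162 CPM in the Myc-deleted libraries, against 75.9, 57.1 and 73.3 CPM in the control libraries (log2 fold change 0.95 ± 0.15, adjusted p = 0.00441). Irf9, its DNA-binding partner, stood at 69.2, 62.7 and 76.0 CPM in the Myc-deleted libraries, against 50.9, 40.2 and 47.5 CPM in the control libraries (log2 fold change 0.59 ± 0.11, adjusted p = 0.00986). Irf7, the factor that amplifies type I interferon production, stood at 513, 452 and 923 CPM in the Myc-deleted libraries, against 306, 207 and 281 CPM in the control libraries (log2 fold change 1.25 ± 0.25, adjusted p = 0.0139). Stat2 and Irf9 passed whichever library was left out, and Irf7 missed the threshold without control library 2 (adjusted p = 0.0735). Ifnlr1, the chain specific to the type III interferon receptor, stood at 40.9, 33.5 and 39.6 CPM in the Myc-deleted libraries, against 26.8, 29.4 and 27.7 CPM in the control libraries (log2 fold change 0.44 ± 0.10, adjusted p = 0.0243). Its groups did not overlap, and it missed the threshold in 5 of the 6 fits that left out a library.

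Of 25 genes of nucleic acid sensing, 23 were tested, 8 rose and 0 fell, with a median log2 fold change of 0.32. An unadjusted p under 0.05 in either direction was found for 12. DESeq2 called 7 higher and limma voom 8, and both called 0 lower. Adar, which edits double-stranded RNA, stood at 115, 119 and 145 CPM in the Myc-deleted libraries, against 87.8, 76.1 and 83.5 CPM in the control libraries (log2 fold change 0.62 ± 0.10, adjusted p = 0.00656). Ifih1, or MDA5, stood at 129.7, 122 and 163 CPM in the Myc-deleted libraries, against 87.6, 70.3 and 88.9 CPM in the control libraries (log2 fold change 0.75 ± 0.13, adjusted p = 0.00700). Ddx58, or RIG-I, stood at 70.4, 75.7 and 109 CPM in the Myc-deleted libraries, against 54.1, 44.9 and 49.7 CPM in the control libraries (log2 fold change 0.78 ± 0.15, adjusted p = 0.0142). Both are cytosolic RNA sensors. Dhx58, the third protein of that family, stood at 26.2, 26.1 and 66.5 CPM in the Myc-deleted libraries, against 15.3, 9.77 and 10.5 CPM in the control libraries (log2 fold change 1.74 ± 0.36, adjusted p = 0.0170). Adar and Ifih1 passed whichever library was left out, Ddx58 missed the threshold without control library 2 (adjusted p = 0.0790), and Dhx58 without control library 2 (0.0892) or 3 (0.0655).

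Among 71 further interferon-stimulated genes, 57 were tested, 14 rose and 1 fell, with a median log2 fold change of 0.52. Ube2l6, the conjugating enzyme of Isg15, stood at 108, 111 and 163 CPM in the Myc-deleted libraries, against 53.8, 36.1 and 62.3 CPM in the control libraries (log2 fold change 1.33 ± 0.21, adjusted p = 0.00441). Uba7, its activating enzyme, stood at 141, 153 and 186 CPM in the Myc-deleted libraries, against 95.2, 87.7 and 113 CPM in the control libraries (log2 fold change 0.70 ± 0.12, adjusted p = 0.00837). With Herc6, Usp18 and Isg15, both the enzymes that attach Isg15 and the protease that removes it were higher. Rnf213, a large ubiquitin ligase, stood at 336, 315 and 592 CPM in the Myc-deleted libraries, against 193, 124 and 165 CPM in the control libraries (log2 fold change 1.37 ± 0.24, adjusted p = 0.00783). Parp11, which attaches single ADP-ribose units, stood at 15.6, 21.7 and 34.7 CPM in the Myc-deleted libraries, against 9.14, 8.73 and 7.97 CPM in the control libraries (log2 fold change 1.48 ± 0.26, adjusted p = 0.00799). These 4 genes passed whichever library was left out. Ifitm2, a relative of Ifitm3, was the 1 gene that fell, and stood at 10.5, 12.1 and 9.87 CPM in the Myc-deleted libraries, against 17.7, 15.7 and 17.2 CPM in the control libraries (log2 fold change -0.64 ± 0.12, adjusted p = 0.0115).

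Markers of the cells that could carry or shed this RNA were counted in the same libraries. Of T cell and intraepithelial lymphocyte markers, 0 of 14 were called, and they summed to 119.9 to 141 CPM in Myc-deleted and 127 to 176 CPM in control libraries. Of 9 markers of B and plasma cells, 0 were called, and their sums were 1878 to 2194 CPM in Myc-deleted and 1436 to 1764 CPM in control libraries. Of 12 tested macrophage and dendritic cell markers, Itgam alone was called, lower (log2 fold change -1.55 ± 0.15, adjusted p = 0.000693), and the 14 markers of that list summed to 156 to 171 CPM in Myc-deleted and 181 to 213 CPM in control libraries. Myc-deleted library 3 was not the highest library in any of these 3 sums, with 136 CPM of the T cell list, 1878 CPM of the B cell list and 166 CPM of the macrophage list. Of 3 tested granulocyte and mast cell markers 0 were called (sums 5.90 to 7.96 and 7.46 to 34.9 CPM in Myc-deleted and control libraries), and Mpo was at 0. Of 2 tested natural killer and innate lymphocyte markers 0 were called (37.6 to 48.4 and 45.1 to 52.4 CPM), and of 11 markers of endothelium, fibroblasts and muscle 0 were called (72.5 to 102 and 75.3 to 134 CPM). Fabp2, the enterocyte fatty acid carrier, was the 1 of 12 epithelial markers that rose (log2 fold change 0.90 ± 0.18, adjusted p = 0.0132), and the epithelial sums were 36961 to 38932 CPM in Myc-deleted and 32410 to 36405 CPM in control libraries. Of 6 tested hepatocyte markers Alb and Tat fell, and the sums of all 10, some of which enterocytes also express, were 4655 to 5116 CPM in Myc-deleted and 3295 to 4514 CPM in control libraries. At an unadjusted p under 0.05, edgeR passed 1 T cell, 1 B cell, 2 granulocyte and mast cell, 1 innate lymphocyte and 2 endothelial, fibroblast and muscle markers, DESeq2 called 1 of these, a B cell marker, and limma voom called 0. In the other lists, edgeR passed 3 macrophage and dendritic cell, 4 epithelial and 4 hepatocyte markers at that unadjusted p. DESeq2 and limma voom each called 1, 1 and 2 markers of those lists. The marker counts at an unadjusted p take either direction, and the share of all tested genes in either direction was not computed. In the higher direction alone it was 11.7%. Fabp2 missed the threshold without control library 2 (adjusted p = 0.0693), Tat without control library 2 or 3 (0.0892 and 0.0926), and Alb in 5 of the 6 fits. The part of these cells in the effector gene result was not tested.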

How the data were processed

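Stranded polyadenylated RNA libraries were prepared, per the labels' protocols. The authors deposited RSEM expected counts per gene, with no scaling between libraries. The submitters' processing notes name cutadapt, STAR, Picard, RSEM and the mouse build mm10, with versions, annotation and strand setting not given in the sources used here. Groups came from the genotype labels, and 0 columns of samples were left unused.

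Expected counts were rounded to whole numbers. Of 47643 genes, 99.1% were matched by Ensembl identifier to GENCODE M21 symbols (GRCm38). Genes were filtered (filterByExpr, minimum count 10, total 15), scaled by TMM and tested for Myc-deleted over control with the quasi-likelihood F-test of edgeR 4.0.16 in R 4.3.3, with Benjamini-Hochberg adjustment over 12720 genes and a threshold of 0.05. The SE was obtained by dividing the size of the log2 fold change by the square root of F. limma 3.58.1 (voom) and DESeq2 1.42.0, other scalings and filters, a replicate block and fits without each library were alternatives.

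The members and lists were chosen with earlier results of these data known. Values per library are given for all 49 genes; of each other pathway list up to 4 genes with the lowest p are named, and Ifitm2, Ifng, Ifna12, Myc and Fabp6 in addition, chosen after their values were seen. The SE includes the spread between libraries, whereas the floor of 3 counts covers counting error only. Results for some genes are not reported here.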

Additional observations from a re-analysis of the deposited data

How the results depend on the processing

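The counts of effector genes called under each scaling, filter and tool are given above. In limma voom, Oas2, Ifit2, Ifit3b, Ifi44, Bst2 and Gbp3 missed the threshold, and in DESeq2 Gbp3. The labels give both groups the same replicate numbers but do not say that a number marks a shared litter or day. Libraries were therefore not treated as pairs. Same-numbered libraries deviated together only weakly (correlations 0.0261, 0.0524 and 0.0189), although every library correlated best with its own number. With the replicate block, 37 effector genes were called, among them all 32, and Igtp, Irgm1, Gbp2, Helz2 and Phf11d. Leaving out 1 library gave 9 to 35 effector genes called and a median log2 fold change of 0.75 to 1.62. Mx1, Tgtp1 and Ifi47 turned to -0.18, -0.33 and -0.27 without Myc-deleted replicate 3, and Ifi47 to -0.13 without control replicate 2, with ranges over these fits of -0.18 to 1.62 for Mx1, -0.33 to 1.43 for Tgtp1 and -0.27 to 0.38 for Ifi47. Without 1 library, 229 to 503 of all genes rose and 233 to 447 fell, and the calls were 2 to 5 for receptors and signalling, 2 to 7 (0 to 1 lower) for sensors and 4 to 16 for the further interferon-stimulated genes. Without a filter, Ifit1bl1, Sp100, Igtp, Irgm1, Helz2, Phf11d, Slfn2 and Ifitm3 were also called, and 24 of the further genes rose, against 14. At an adjusted p of 0.1, 824 of all genes rose and 748 fell. Against a 1.2-fold change, 230 of all genes rose and 178 fell, with 2 receptor and signalling genes, 3 sensors and 7 further genes higher and 0 further genes lower. Fewer samples in the fits without a library also lower what can be detected; the cause of each change was not tested. With 3 libraries a group, a gene that varies widely within a group needs a large fold change to pass.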
